A study of Homo sapiens with 7 samples.

Results

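The genes that carry a cell through G2 and mitosis were examined in 7 lines of K562, an established chronic myeloid leukemia cell line driven by the BCR::ABL1 fusion kinase. Members were 50 genes named for this role, found in the count table through the gene symbols that the authors paired with gene identifiers. Of these, 49 had a symbol there and were among the 10452 genes tested, out of 25702 gene identifiers counted. The remaining member, UBE2C, was found through RefSeq and had too few counts to test. The members were sorted by role into cyclins and CDK1, the phosphatases and kinases that set CDK1 activity, polo and Aurora kinases, the chromosomal passenger complex, the spindle checkpoint, anaphase onset, the kinetochore, spindle motors, cytokinesis, chromosome structure and the transcription factor FOXM1.

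Entry into mitosis depends on CDK1 bound to cyclin B. WEE1 and PKMYT1 hold this kinase inactive by phosphorylation, and the CDC25 phosphatases remove that brake. Polo and Aurora kinases then build the spindle, kinetochores tie chromosomes to it, and the checkpoint delays anaphase until all are attached. Many of these genes are transcribed mainly in G2 and M, under the MuvB complex with B-MYB and FOXM1, so that their RNA in a culture depends on how many cells are in those phases. In RNA from whole cultures, fewer cells in G2/M and less RNA per cell cannot be told apart.

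Each line gave 1 library. The control group was the drug naive K562 line and the line kept in DMSO, the solvent of the drug. Dasatinib-resistant (DasR) lines came from long culture under rising doses of dasatinib, an inhibitor of ABL1 and SRC family kinases, and were taken at 10, 15 and 25 nM (early stage) and at 50 and 200 nM (late stage). All lines descend from K562 and carry BCR::ABL1, and the DasR lines are successive stages of a single escalation, so they are not independent derivations. The early and late groups were drawn by the study from the clustering of the same libraries, and the treatment label separates only DasR from control. The lines within each group stood in for replicates, so that the p-values measure only the spread between these lines, dose included.

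Total counts were 21007761 and 24037893 in the drug naive and DMSO libraries, 27808639, 27844799 and 20059656 in the early libraries from 10 to 25 nM, and 20827519 and 21588772 in the late libraries. Levels are given below as CPM, each gene's share of its library on a fixed scale, after TMM scaling, and changes as log2 fold changes with their SE from edgeR's quasi-likelihood test. A gene is said to have risen or fallen where its Benjamini-Hochberg adjusted p over all tested genes (FDR) was under 0.05, and the study's stricter limit of 0.005 is named where it was passed. The labels call the cells erythroblasts, and all 12 erythroid markers listed were above the filter, with GATA1 at 201 and 217 CPM in the drug naive and DMSO lines before TMM scaling. Lymphoid markers (6) summed to between 7.69 and 33.7 CPM and fibroblast markers (6) to between 5.05 and 19.6 CPM, and of these 12 only CD3D, described with the other cell type markers, passed the filter.

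As a group the mitosis genes were abundant and close to level across the 7 lines. Their summed level was 7943 CPM in the drug naive line, 8239 in DMSO, 8078, 8084 and 8246 at 10, 15 and 25 nM, and 7714 and 7790 at 50 and 200 nM, before TMM scaling. The sum was lowest at 50 nM and highest at 25 nM, and the 2 control lines lay inside the range of the DasR lines. It includes TOP2A, at 894 and 853 CPM in the controls and 425 to 521 CPM in the DasR lines on the same scale. The fall of that 1 gene lowers the sum in every DasR line, so a level sum does not show that the other members were level. Members made up between 0.771% and 0.824% of all counts in a line. Per length of transcript their median level was 40.7 RPKM, beside 15.4 RPKM for all tested genes, and it ran from 16.3 RPKM for CDC25C to 141 RPKM for SPC25, a subunit of the NDC80 complex.

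The spread of a member over the lines, its highest minus its lowest log2 CPM, had a median of 0.47, beside 0.70 for all tested genes. A spread over 1 was seen in 2 members (4.08%), ANLN at 1.26 and TOP2A at 1.13, and in 28.5% of all tested genes. A spread under 0.5 was seen in 26 members (53.1%) and in 29.4% of all genes. The smallest were 0.17 for BUB3, 0.20 for SMC4 and 0.21 for CDC20. The 2 control lines differed little from each other, with a median DMSO minus drug naive difference of 0.03 on the log2 scale and a largest one of 0.44, in PKMYT1.

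**Figure D1:**
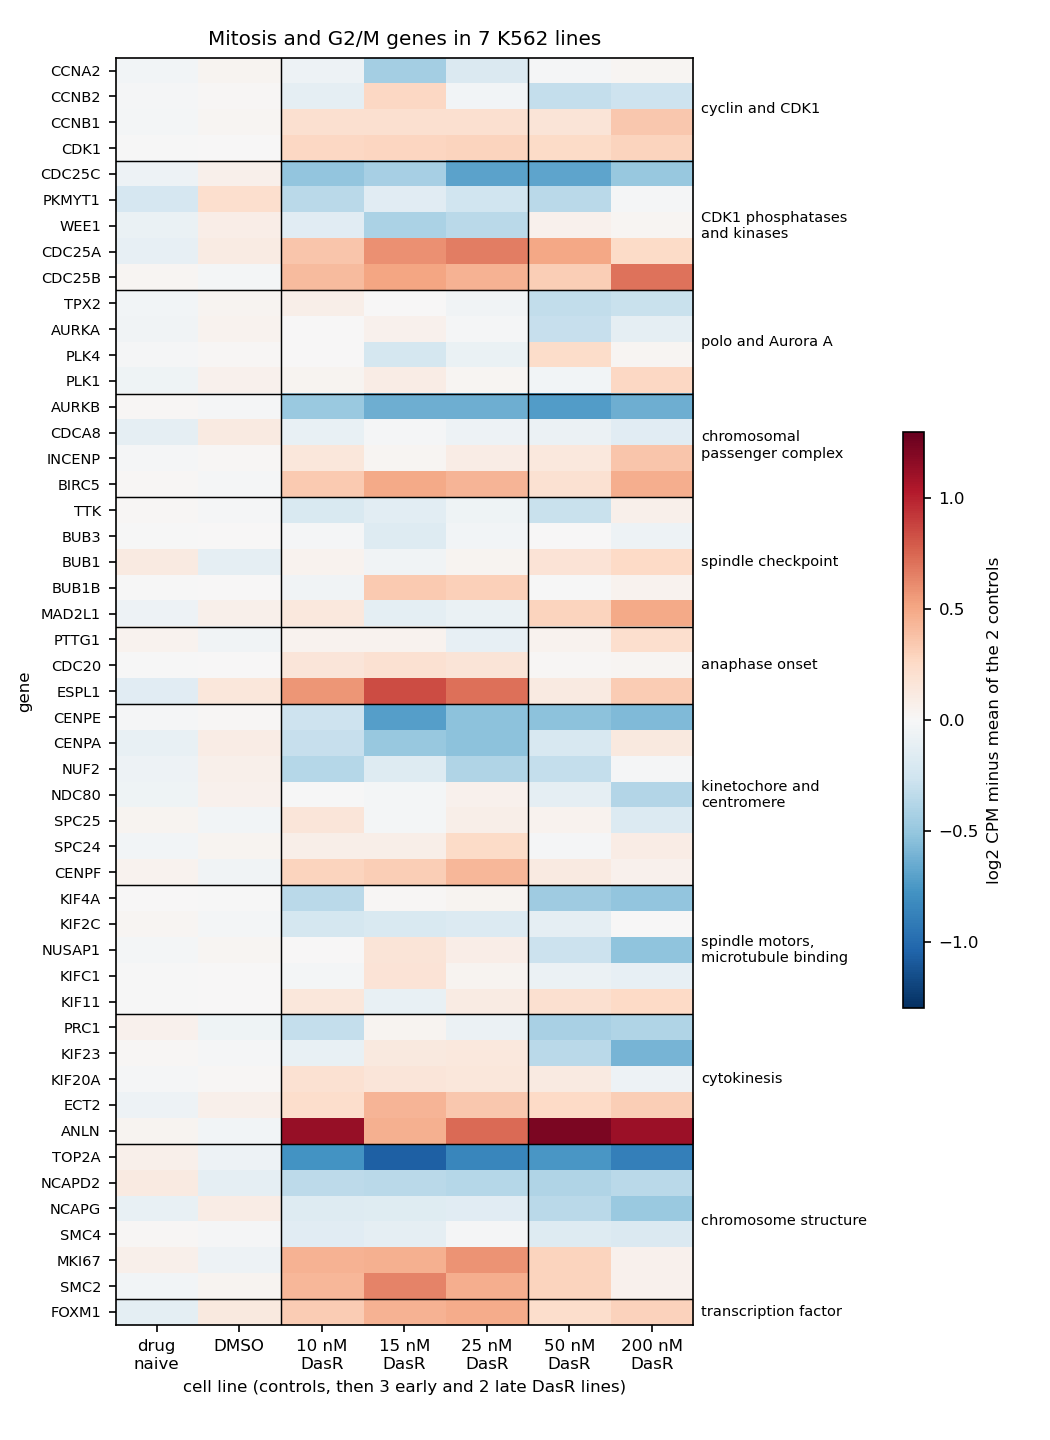
Level of 49 mitosis and G2/M genes in each of 7 lines, as log2 CPM minus the mean of the 2 control lines (color), with genes in rows by role and lines in columns. TOP2A, AURKB and CDC25C are blue in all 5 DasR lines, ANLN, CDC25A and CDC25B are red in all 5, and most other rows are pale.

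Against the controls, the median member was at a log2 fold change of 0.02 in the early lines and 0.01 in the late lines, beside 0.00 for all tested genes in both. In the early lines 28 members had positive and 21 negative fold changes, and in the late lines 25 and 24. At an FDR of 0.005 the early comparison called 2 members (4.08%), TOP2A and AURKB, both lower, where 18.0% of all tested genes were called in either direction. DESeq2 called 15 members at that limit (30.6%), 10 higher and 5 lower, beside 34.0% of all genes. In edgeR at an FDR of 0.05, 11 members (22.4%) rose, beside 22.6% of all genes, and 6 (12.2%) fell, beside 24.0%. The late comparison called TOP2A and AURKB at 0.005, where 7.98% of all genes were called. At 0.05, 4 members (8.16%) rose and 11 (22.4%) fell, beside 16.2% and 17.6% of all genes.

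These counts dropped when some lines were left out, and so did the share of all genes called. The early count at 0.05 dropped from 17 to 6 without the drug naive line, to 9 without DMSO and to 8 without the 25 nM line, where 26.7%, 34.9% and 33.8% of all genes were called in place of 46.5%. The late count dropped from 15 to 5, 4 and 8 without those same lines and to 4 without the 200 nM line, with 15.0%, 25.0%, 26.1% and 24.6% of all genes in place of 33.9%. The 25 nM line enters the late comparison only through the spread estimated over all lines. Both comparisons use the same 2 controls.

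CDK1 rose by a small and even amount, and its cyclins did not pass the test. CDK1 stood at 229 and 230 CPM in the drug naive and DMSO lines, 277, 279 and 279 at 10, 15 and 25 nM, and 273 and 281 at 50 and 200 nM. All 5 DasR lines lay above both controls and close to each other. The change was 0.28 ± 0.07 (SE) in the early lines (FDR 0.0167) and 0.27 ± 0.08 in the late lines (FDR 0.0333), or 1.21-fold in both. The early call was lost without the drug naive (FDR 0.0667), DMSO (0.0555) or 25 nM line (0.0658), and the late call without any 1 of the 7 (0.0557 to 0.105). CCNB1, its B-type cyclin, was at 150 and 156 CPM in the controls, 177, 176 and 176 in the early lines and 172 and 194 in the late lines. It too was higher in every DasR line, but at FDR 0.0813 (early) and 0.0631 (late). CCNB2 and CCNA2, the other mitotic cyclins listed, had FDR values between 0.132 and 0.978.

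The regulators of CDK1 moved in different directions. CDC25A, a phosphatase that acts on CDK2 and CDK1, went from 60.8 and 70.1 CPM in the controls to 83.9, 98.3 and 104 in the early lines and 92.4 and 77.7 in the late lines. It rose in the early lines by 0.54 ± 0.13 (FDR 0.0136), a call lost without the drug naive line (FDR 0.0943), and was at 0.38 ± 0.14 in the late lines (FDR 0.0773). CDC25B, which starts CDK1 activation at the centrosome, was at 64.7 and 62.1 CPM in the controls, 84.3, 90.3 and 86.7 in the early lines and 79.4 and 103 in the late lines. All 5 DasR lines were above both controls, with the 200 nM line highest.

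CDC25B rose by 0.46 ± 0.12 in the early lines (FDR 0.0185) and by 0.53 ± 0.13 in the late lines (FDR 0.0209), 1.37-fold and 1.44-fold. Neither call held without the drug naive line (FDR 0.0740 early, 0.0801 late) or DMSO (0.0891, 0.0852). The early call was also lost without the 15 nM (0.0515) or 25 nM line (0.0546), and the late call without 200 nM (0.0710), where the late log2 fold change was 0.32 in place of 0.53. CDC25C, the phosphatase that completes activation in mitosis, went the other way. Its levels were 43.6 and 47.4 CPM in the controls, 31.7, 33.8 and 28.0 in the early lines and 28.3 and 32.2 in the late lines, with no overlap between DasR and control lines. It fell by 0.55 ± 0.12 (early, FDR 0.00884) and by 0.59 ± 0.13 (late, FDR 0.0145), which is 1.46-fold and 1.50-fold lower. Those calls were lost without DMSO (FDR 0.0548 and 0.0645), and the late call also without 50 nM (0.0541). In the annotation of GRCh37, CDC25C (chr5:137620958-137674044, minus strand) shares 8.80% of its exon bases with FAM53C on the opposite strand, and FAM53C had up to 2457 counts in a line, against 554 at the lowest for CDC25C.

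WEE1, the kinase that opposes CDC25, was at 126 and 143 CPM in the controls, 122, 101 and 106 in the early lines and 140 and 137 in the late lines. The 3 early lines were below both controls and the late lines between them, at -0.30 ± 0.11 (FDR 0.0533) and 0.04 ± 0.12 (FDR 0.818). PKMYT1, its membrane-bound relative, had FDR 0.204 and 0.427.

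Among the polo and Aurora kinases most values stayed near the controls. PLK1, the polo kinase of mitotic entry and exit, was at 194 and 210 CPM in the controls, 206, 216 and 205 in the early lines and 196 and 244 in the late lines. AURKA, the Aurora kinase of the spindle poles, was at 99.2 and 105 CPM, then 103, 107 and 101, then 83.0 and 94.2. In PLK1 the 200 nM line was highest and in AURKA both late lines were below both controls. Neither gene passed the test (PLK1 FDR 0.725 early and 0.441 late, AURKA 0.893 and 0.136).

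TPX2, which activates Aurora A on the spindle, was at 353 and 371 CPM in the controls, 382, 363 and 350 in the early lines and 289 and 296 in the late lines. The late lines were below all 5 others. TPX2 fell by 0.31 ± 0.09 in the late lines (FDR 0.0315) and was at 0.01 ± 0.08 in the early lines (FDR 0.915). With only the control and late lines in the fit its late FDR was 0.0908, and without a filter on low counts 0.130. The late call was lost without the drug naive, DMSO, 15 nM, 25 nM, 50 nM or 200 nM line (FDR 0.0527 to 0.105).

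AURKB, the catalytic subunit of the chromosomal passenger complex, was among the most changed members. Its levels were 68.9 and 67.7 CPM in the controls, 48.7, 44.0 and 43.9 in the early lines and 41.2 and 44.0 in the late lines. The highest DasR line lay well below the lower control. AURKB fell by 0.58 ± 0.09 in the early lines (FDR 0.00230) and by 0.68 ± 0.10 in the late lines (FDR 0.00326), 1.50-fold and 1.60-fold lower, past 0.005 in both. Without the drug naive line these FDR values were 0.0198 and 0.0232, without DMSO 0.0134 and 0.0156, without 15 nM 0.00918 and 0.00620, and without 25 nM 0.0132 and 0.0102. Without 50 nM or 200 nM the late FDR was 0.0144 or 0.0102. The call at 0.005 was therefore lost in each of these fits, and the call at 0.05 in none.

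The other subunits of that complex did not follow AURKB. BIRC5 (survivin), which targets the complex to centromeres, went from 48.9 and 48.1 CPM in the controls to 61.4, 68.3 and 66.1 in the early lines and 55.7 and 67.2 in the late lines. It rose by 0.43 ± 0.11 in the early lines (FDR 0.0153) and was at 0.34 ± 0.12 in the late lines (FDR 0.0575). The early call was lost without the drug naive (FDR 0.0658), DMSO (0.0688) or 25 nM line (0.0524). INCENP, the scaffold, and CDCA8 (borealin) did not pass the test, with FDR values from 0.0930 to 0.605.

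Of the 5 spindle checkpoint genes, which hold back anaphase, 0 were called at 0.05 in the early lines and 1 in the late lines, beside 46.5% and 33.9% of all tested genes. MAD2L1, which forms the inhibitor of the anaphase-promoting complex, was at 82.3 and 89.9 CPM in the controls, 94.4, 78.8 and 80.9 in the early lines and 105 and 121 in the late lines. Both late lines were above all 5 others. MAD2L1 rose by 0.39 ± 0.12 in the late lines (FDR 0.0460) and was at -0.02 ± 0.11 in the early lines (FDR 0.878). The late call was lost without the drug naive (FDR 0.198), DMSO (0.0834), 15 nM (0.0533), 25 nM (0.0794) or 200 nM line (0.182).

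BUB1, a checkpoint kinase, was at 212 and 180 CPM in the controls, 202, 189 and 200 in the early lines and 222 and 234 in the late lines. The early lines lay between the controls, and neither comparison passed the test (FDR 0.958 and 0.149). BUB3, BUB1B and TTK were likewise not called, with FDR values from 0.207 to 0.926.

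At anaphase onset, ESPL1 stood out in the early lines. It encodes separase, the protease that opens cohesin rings. Its levels were 80.1 and 98.6 CPM in the controls, 132, 160 and 146 in the early lines and 96.5 and 112 in the late lines. All 3 early lines were above every other line, and the 50 nM line lay between the controls. ESPL1 rose by 0.71 ± 0.13 in the early lines (FDR 0.00514, 1.63-fold), which narrowly missed the limit of 0.005, and was at 0.22 ± 0.14 in the late lines (FDR 0.265). CDC20, an activator of the anaphase-promoting complex, was at 138 and 140 CPM in the controls, 155, 160 and 156 in the early lines and 140 and 141 in the late lines, and its early change of 0.18 ± 0.07 did not pass (FDR 0.0816). PTTG1 (securin), the inhibitor of separase, had FDR 0.960 and 0.353. UBE2C, the ubiquitin-conjugating enzyme of the same complex, had between 13 and 33 counts, or 0.648 to 1.29 CPM before TMM scaling, and was not tested. The lowest mean level among the 49 tested members was 29.2 CPM. Whether the few counts of UBE2C come from how reads were counted was not tested, so they may not give its RNA level.

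In the kinetochore and centromere group, calls were split between directions. CENPF, a kinetochore protein that peaks in G2, was at 388 and 366 CPM in the controls, 461, 471 and 507 in the early lines and 408 and 391 in the late lines. The early lines were above all others. CENPF rose by 0.35 ± 0.08 in the early lines (FDR 0.0126), a call lost without DMSO (FDR 0.0662) or 25 nM (0.0561), and was at 0.08 ± 0.09 in the late lines (FDR 0.494). CENPA, the histone H3 variant of centromeres, was at 31.4 and 35.9 CPM in the controls, 27.2, 23.9 and 23.2 in the early lines and 29.0 and 36.7 in the late lines.

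The early lines held the 3 lowest CENPA levels. It fell there by 0.44 ± 0.14 (FDR 0.0369) and was at -0.03 ± 0.16 in the late lines (FDR 0.883). That call was lost without the drug naive (FDR 0.0714), DMSO (0.184), 15 nM (0.0901) or 25 nM line (0.113). CENPE, a kinetochore motor, fell in both comparisons, by 0.49 ± 0.13 (FDR 0.0179) and 0.55 ± 0.14 (FDR 0.0235), with the highest DasR line at 190 CPM and the lower control at 226 CPM. Its early call was lost without the drug naive, DMSO or 25 nM line (FDR 0.0590 to 0.0772), and its late call without the drug naive, DMSO, 50 nM or 200 nM line (0.0634 to 0.0894). NDC80, which binds microtubules at the kinetochore, was at 108 and 117 CPM in the controls, 111, 110 and 117 in the early lines and 103 and 86.2 in the late lines. It did not pass the test (FDR 0.950 and 0.123), and neither did NUF2, SPC24 and SPC25, its partners in the NDC80 complex, with FDR values from 0.0778 to 0.812.

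Of the 10 spindle and cytokinesis genes tested, 5 were called in the late lines at 0.05, where 33.9% of all genes were. There NUSAP1, KIF4A, KIF23 and PRC1 fell, and ANLN, described after them, rose. In the early lines 0 of the 5 spindle genes and 2 of the 5 cytokinesis genes were called, beside 46.5% of all genes. NUSAP1, a protein that bundles spindle microtubules, was at 196 and 204 CPM in the controls, 201, 225 and 212 in the early lines and 165 and 140 in the late lines. KIF23, the kinesin of the central spindle, was at 74.3 and 73.2 CPM in the controls, 69.0, 80.5 and 81.4 in the early lines and 58.0 and 48.5 in the late lines. For both genes the late lines were below all 5 others, with the 200 nM line lowest. NUSAP1 fell by 0.39 ± 0.11 in the late lines (FDR 0.0315) and KIF23 by 0.47 ± 0.13 (FDR 0.0268), while the early values were 0.09 ± 0.10 (FDR 0.509) and 0.06 ± 0.11 (FDR 0.683).

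Both of those late calls were lost without the drug naive line (FDR 0.0904 for NUSAP1, 0.102 for KIF23), DMSO (0.106, 0.0772), 25 nM (0.0638, 0.0505) or 200 nM (0.120, 0.111). KIF4A, a chromokinesin, and PRC1, which crosslinks the central spindle, also fell in the late lines, by 0.49 ± 0.14 (FDR 0.0329) and 0.41 ± 0.12 (FDR 0.0396). Both calls were lost without the drug naive, DMSO, 50 nM or 200 nM line (FDR 0.0757 to 0.161), and PRC1 also without 25 nM (0.0729). KIF11, the motor that pushes spindle poles apart, was at 123 and 124 CPM in the controls, 136, 115 and 133 in the early lines and 142 and 147 in the late lines (FDR 0.639 and 0.127). KIF20A, a cytokinesis kinesin, was at 79.8 and 81.8 CPM in the controls, 93.0, 90.2 and 89.6 in the early lines and 87.6 and 77.2 in the late lines (FDR 0.140 and 0.834). Neither KIF11 nor KIF20A separated all DasR lines from the controls.

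ANLN had the largest rise of the 49 members in both comparisons. It encodes anillin, which links actin, myosin and septins in the cleavage furrow. Its levels were 106 and 101 CPM in the controls, 227, 142 and 172 in the early lines and 242 and 223 in the late lines. Every DasR line was above both controls, but the early lines were spread wider than in any other member, with 15 nM lowest. ANLN rose by 0.81 ± 0.18 in the early lines (FDR 0.0110, 1.75-fold) and by 1.17 ± 0.20 in the late lines (FDR 0.00588, 2.25-fold). The early call was lost without the drug naive (FDR 0.0606) or DMSO line (0.0632), and the late call held at 0.05 without any 1 line. ECT2, the exchange factor that activates RhoA for the furrow, rose in the early lines by 0.34 ± 0.10 (FDR 0.0229) and was at 0.29 ± 0.10 in the late lines (FDR 0.0688). Its call was lost without the drug naive (FDR 0.126), 15 nM (0.0689) or 25 nM line (0.0746).

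TOP2A had the largest fall. It encodes topoisomerase II alpha, which untangles and condenses chromosomes before they separate, and lies at chr17:38544777-38574148 on the minus strand of GRCh37. Its levels were 934 and 857 CPM in the drug naive and DMSO lines, 524, 428 and 496 at 10, 15 and 25 nM, and 529 and 485 at 50 and 200 nM. All 5 DasR lines were far below both controls, with little order by dose. TOP2A fell by 0.89 ± 0.11 in the early lines (FDR 0.00105, 1.86-fold lower) and by 0.82 ± 0.12 in the late lines (FDR 0.00356, 1.77-fold lower). The FDR values were 0.0120 and 0.0265 without the drug naive line, 0.00601 and 0.0131 without DMSO and 0.00588 and 0.0101 without 25 nM, each above 0.005. The late value was also above 0.005 without 10 nM (0.00504), 50 nM (0.0109) or 200 nM (0.0182), and no fit took either past 0.05.

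MKI67, which coats mitotic chromosomes and marks cycling cells, did not follow TOP2A. It was at 504 and 461 CPM in the controls, 661, 666 and 723 in the early lines and 591 and 500 in the late lines. The early lines were above all others, while the 200 nM line lay between the controls. MKI67 rose by 0.50 ± 0.10 in the early lines (FDR 0.00734) and was at 0.18 ± 0.11 in the late lines (FDR 0.258). Among condensin subunits, which compact chromosomes, SMC2 rose in the early lines by 0.52 ± 0.11 (FDR 0.00783). NCAPD2 fell in the early lines by 0.36 ± 0.09 (FDR 0.0153) and in the late lines by 0.37 ± 0.10 (FDR 0.0261), NCAPG fell in the late lines by 0.42 ± 0.10 (FDR 0.0180), and SMC4 was not called (FDR 0.371 and 0.147). The call of SMC2 was lost without the drug naive line (FDR 0.0556) and that of NCAPG without DMSO (0.0746) or 200 nM (0.0719). Those of NCAPD2 were lost without the drug naive (FDR 0.0968 early, with a log2 fold change of -0.24 in place of -0.36, and 0.122 late) or 25 nM line (0.0582, 0.0575), and in the late lines also without 50 nM (0.0785) or 200 nM (0.0662).

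FOXM1, the forkhead factor that activates G2/M genes, was at 53.5 and 63.9 CPM in the controls, 73.6, 80.2 and 81.4 in the early lines and 68.6 and 72.0 in the late lines. All 5 DasR lines were above both controls. It rose by 0.42 ± 0.10 in the early lines (FDR 0.0155) and was at 0.26 ± 0.11 in the late lines (FDR 0.117). The early call was lost without the drug naive (FDR 0.0906) or 25 nM line (0.0591). FOXM1 shares 15.9% of its exon bases with ITFG2 on the opposite strand, and ITFG2 had at most 415 counts in a line, against at least 1075 for FOXM1.

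**Figure D2:**
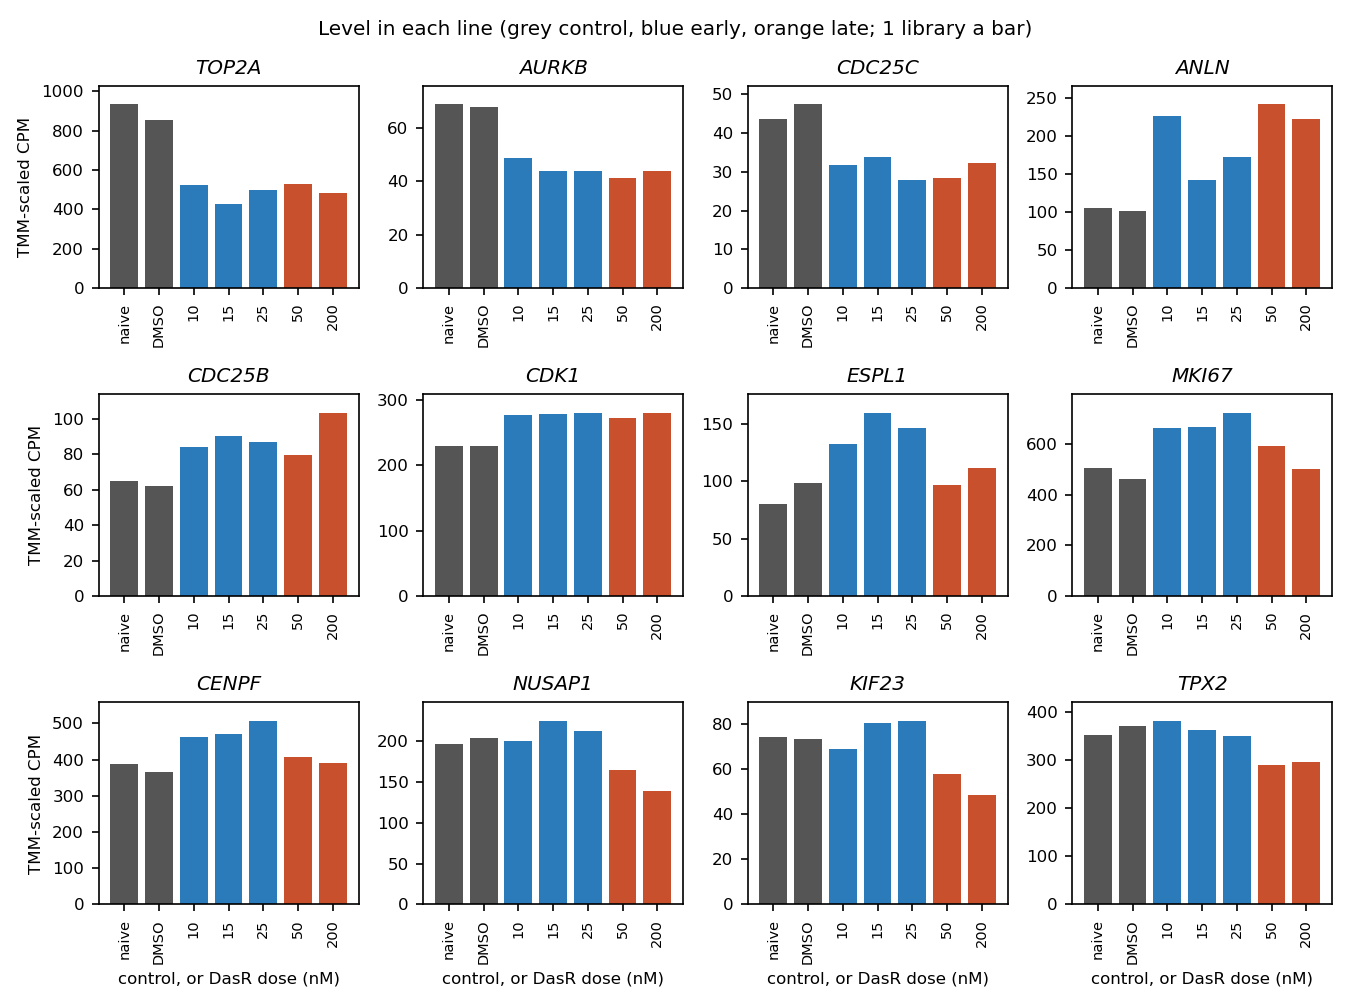
Level of 12 genes in each line, in TMM-scaled CPM on axes that start at 0, with 1 library a bar (grey controls, blue early, orange late). TOP2A, AURKB and CDC25C are lower in all 5 DasR lines, ANLN, CDC25B and CDK1 are higher in all 5, ESPL1, MKI67 and CENPF are highest in the 3 early lines, and NUSAP1, KIF23 and TPX2 are lowest in the 2 late lines.

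Set side by side, the early and late calls at 0.05 were as follows. The genes CDK1, CDC25B and ANLN rose in both, and CDC25C, AURKB, CENPE, TOP2A and NCAPD2 fell in both. The call was made in the early lines alone for 8 genes that rose (CDC25A, BIRC5, ESPL1, CENPF, ECT2, MKI67, SMC2 and FOXM1) and for CENPA, which fell. It was made in the late lines alone for MAD2L1, which rose, and for 6 genes that fell (TPX2, KIF4A, NUSAP1, KIF23, PRC1 and NCAPG). In neither comparison were the other 25 called, among them PLK4, which starts centriole copying (FDR 0.468 and 0.384), and the kinesins KIF2C (0.0711 and 0.645) and KIFC1 (0.558 and 0.481). Of members, 6.12% rose and 10.2% fell in both, beside 12.7% and 13.1% of all tested genes. The shares were 16.3% (rose) and 2.04% (fell) in the early lines alone, beside 9.73% and 10.8%, and 2.04% and 12.2% in the late lines alone, beside 3.44% and 4.43%. Neither comparison called 51.0% of members, beside 45.6%. Some late calls were lost in a fit to the control and late lines only (FDR 0.0550 to 0.121). These were the calls of CDK1, CDC25B, MAD2L1, TPX2, NUSAP1, KIF23, NCAPD2 and NCAPG. A call at one stage alone does not show that the stages differ, which needs the comparison of late with early lines. That comparison has a limit of its own. The study drew the stages by clustering these same libraries, so its FDR values may be too small.

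Exon bases of 17 members overlap those of another counted gene in the GRCh37 annotation, and TOP2A, AURKB, ESPL1, MKI67 and CDK1 are not among them. The share runs from 1.22% for PLK1, with ERN2, to 34.3% for PRC1, with its antisense gene PRC1-AS1, which had at most 26 counts. On the same strand, CENPA shares 7.08% with SLC35F6 (up to 2877 counts, against 460 at the lowest for CENPA). NUSAP1 shares 5.40% with OIP5-AS1 (up to 3445, against 3006), and BUB1B 5.38% with PAK6 (up to 178, against 2487). Reads there may have been split or dropped in counting, so that these levels are less certain.

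**Figure D3:**
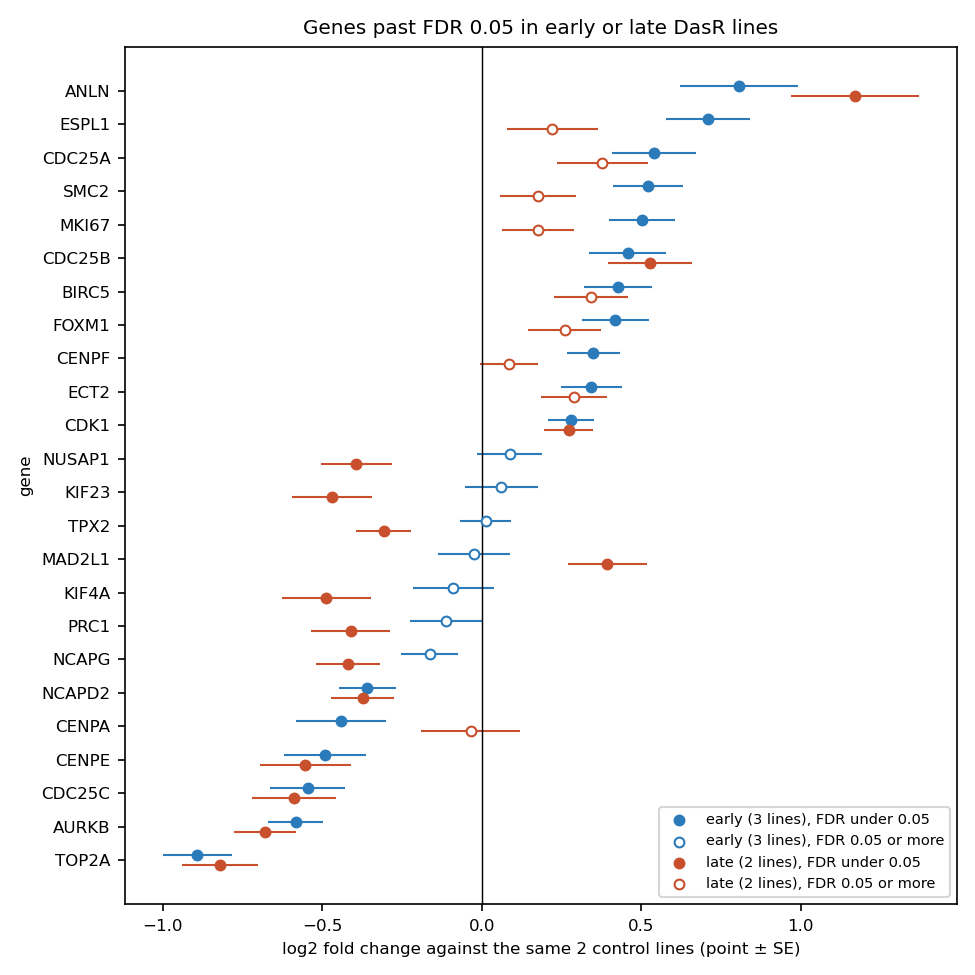
Log2 fold change ± SE of the 24 members past an FDR of 0.05 in the early lines (blue, 3 lines) or the late lines (orange, 2 lines) against the same 2 controls, with open points for an FDR of 0.05 or more. TOP2A lies near -0.89 and -0.82, ANLN near 0.81 and 1.17, and NUSAP1, KIF23 and TPX2 are near 0 in the early lines and below it in the late lines.

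The late lines were then set against the early lines directly. At an FDR of 0.005 no gene was called by edgeR (0% of 10452), although 3450 genes and 16 members had an unadjusted p under 0.05. DESeq2 called 3 members at that limit (6.12%), beside 10.9% of all genes. In edgeR at 0.05 no member was higher in the late lines, beside 6.60% of all genes, and 3 (6.12%) were lower, beside 6.10%. These were KIF23 at -0.53 ± 0.12 (FDR 0.0316), NUSAP1 at -0.48 ± 0.10 (FDR 0.0293) and TPX2 at -0.32 ± 0.08 (FDR 0.0432). The median member was at -0.06, with 19 positive and 30 negative. ESPL1 at -0.49 ± 0.13 (FDR 0.0524), MAD2L1 at 0.42 ± 0.11 (FDR 0.0521) and CENPA at 0.41 ± 0.14 (FDR 0.0976) did not pass.

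All 3 calls were lost in a fit to the early and late lines only (FDR 0.0518 to 0.0604). They were also lost without the drug naive line (0.0526 to 0.0625), DMSO (0.0536 to 0.0631), 15 nM (0.0825 to 0.114), 25 nM (0.0829 to 0.103) or 200 nM (0.150 to 0.173). TPX2 was also lost without 10 nM (FDR 0.0921) or 50 nM (0.0849).

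With the 5 DasR lines taken as 1 group, as the treatment label has them, TOP2A at -0.86 (FDR 0.00150) and AURKB at -0.62 (FDR 0.00249) were again the 2 members past 0.005, where 8.08% of all genes were called. At 0.05, 7 members (14.3%) rose and 5 (10.2%) fell, beside 15.9% and 16.5% of all genes. In 12 members all 5 DasR lines were above both controls, beside 24.4% of all genes, and in 6 they were below both, beside 25.1%. The 12 were CCNB1, CDK1, CDC25A, CDC25B, BIRC5, INCENP, CDC20, CENPF, ANLN, ECT2, SMC2 and FOXM1. The 6 were CDC25C, AURKB, CENPE, TOP2A, NCAPD2 and NCAPG.

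Promoters were read because many mitosis genes share 2 elements. One is the cell cycle genes homology region, to which MuvB binds and whose usual letters are TTTGAA or TTCGAA, and the other is the CCAAT box, to which NF-Y binds. Sequences from RefSeq (GRCh38.p14), from 250 bases before to 50 after each start, were present for 41 of the 50 members and for 8339 of the tested genes. Letters were searched on both strands, with overlaps allowed, so that CCAAT also counts as ATTGG. The letters TTTGAA or TTCGAA were found in 32 members (78.0%), beside 15.5% of tested genes and 19.5% of the 27305 promoters in the table. CCAAT was found in 32 (78.0%), beside 43.8% and 39.7%, and both in 24 (58.5%), beside 6.61% and 7.85%.

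Windows are printed for 5 members which fell in both stages (TOP2A, AURKB), rose (ANLN, ESPL1) or were not called (PLK1). Each ends at the base before the RefSeq start, runs 5′ to 3′ on the strand of the gene, and has in capitals TTTGAA and CCAAT, and on the other strand TTCAAA and ATTGG. They lie at chr17:40417897-40418096 (minus strand), chr17:8210250-8210389 (minus), chr7:36389782-36389861 (plus), chr12:53268219-53268298 (plus) and chr16:23678809-23678888 (plus).
TOP2A: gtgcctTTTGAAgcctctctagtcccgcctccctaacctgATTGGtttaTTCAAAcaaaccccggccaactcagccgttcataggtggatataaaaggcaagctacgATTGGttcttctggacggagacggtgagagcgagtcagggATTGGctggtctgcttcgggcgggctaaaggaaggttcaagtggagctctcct
AURKB: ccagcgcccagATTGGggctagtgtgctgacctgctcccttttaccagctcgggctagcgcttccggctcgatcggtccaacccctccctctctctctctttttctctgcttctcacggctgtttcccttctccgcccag
ANLN: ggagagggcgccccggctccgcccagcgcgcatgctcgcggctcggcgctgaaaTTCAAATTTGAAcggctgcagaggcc
ESPL1: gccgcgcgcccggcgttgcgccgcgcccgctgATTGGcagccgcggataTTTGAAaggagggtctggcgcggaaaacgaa
PLK1: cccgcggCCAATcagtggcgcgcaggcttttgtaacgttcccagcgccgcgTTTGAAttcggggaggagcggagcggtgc

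The printed windows are of unequal length (200, 140, 80, 80 and 80 bases), so the letters were compared over the whole 300 bases of each. There TOP2A has 2 copies of TTTGAA and 4 of CCAAT, while AURKB, which also fell, has 1 CCAAT and no TTTGAA. ANLN has 2 copies of TTTGAA side by side on opposite strands and no CCAAT, and ESPL1 and PLK1 have 1 of each. Over members, those with TTTGAA or TTCGAA (32) had median log2 fold changes of 0.05 in the early and -0.01 in the late lines, with 12 called at 0.05 in each. Those without (9) had medians of -0.01 and 0.03, with 3 and 2 called. Of all tested genes, 46.5% were called in the early and 33.9% in the late lines. A match is a description of letters, not of binding.

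Other mitosis genes were counted from a longer list of 127 genes (anaphase-promoting complex, cohesin, further kinetochore, spindle and cytokinesis genes), of which 124 were tested. At an FDR of 0.005, 6 rose and 7 fell in the early lines, and 1 rose and 7 fell in the late lines. These are 10.5% and 6.45% of the list, beside 18.0% and 7.98% of all tested genes. RAD21, the kleisin subunit of cohesin, fell by 0.89 ± 0.09 (early, FDR 0.000539) and by 0.65 ± 0.10 (late, FDR 0.00373). STAG1, another cohesin subunit, rose in the early lines by 0.75 ± 0.13. ANAPC16, a subunit of the anaphase-promoting complex, fell by 0.80 ± 0.09 and 0.96 ± 0.10, while ANAPC4 and ANAPC11 of the same complex rose in the early lines by 0.88 ± 0.15 and 0.73 ± 0.12. NCAPG2, of condensin II, fell by 0.55 ± 0.09 and 0.73 ± 0.10. CENPB, which binds centromeric repeats, rose by 0.72 ± 0.11 and 0.88 ± 0.12. In the late lines the cell cycle transcription factor E2F1 fell by 0.94 ± 0.14 and RBL1, a pocket protein of the repressive complex, by 0.77 ± 0.11.

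The genes of the preceding phases were read beside the mitosis genes. All 44 listed G1/S and replication genes were tested, and their median log2 fold change was 0.23 in the early and 0.13 in the late lines. At 0.005, 5 rose and 1 fell in the early lines, and 2 rose and 2 fell in the late lines. That is 13.6% and 9.09% of the list, beside 18.0% and 7.98% of all tested genes. At 0.05, 16 rose in the early lines (36.4%, beside 22.6% of all genes) and 3 fell (6.82%, beside 24.0%). In the late lines 5 rose (11.4%, beside 16.2%) and 4 fell (9.09%, beside 17.6%). PCNA, the sliding clamp, rose by 1.24 ± 0.10 (early) and 0.94 ± 0.10 (late), and GMNN (geminin), the inhibitor of relicensing, by 0.92 ± 0.10 and 0.83 ± 0.11. CDC6, a licensing factor, fell by 0.73 ± 0.11 and 0.85 ± 0.12, and CDT1, its partner, by 0.86 ± 0.12 in the late lines. The median of these 44 genes already differed between the controls, at -0.10 in the drug naive and 0.10 in the DMSO line around their mean, and it was 0.18, 0.25 and 0.30 in the early and 0.15 and 0.17 in the late lines. Of 12 listed inhibitors of cyclin-dependent kinases and G1 brakes, 11 were tested. At 0.05, 4 rose and 2 fell in the early lines, with a median of 0.30, and 3 rose and 3 fell in the late lines, with a median of 0.06. That is 54.5% in each, beside 46.5% and 33.9% of all tested genes. At 0.005 the shares were 18.2% and 0%, beside 18.0% and 7.98% of all genes. The largest early rise was that of BTG2, an antiproliferative p53 target, by 2.11 ± 0.44 (FDR 0.00741). Past 0.005, SESN1, a p53 target, rose by 0.99 ± 0.14 and CCNG2, an atypical cyclin of arrested cells, fell by 1.20 ± 0.22 in the early lines.

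**Figure D4:**
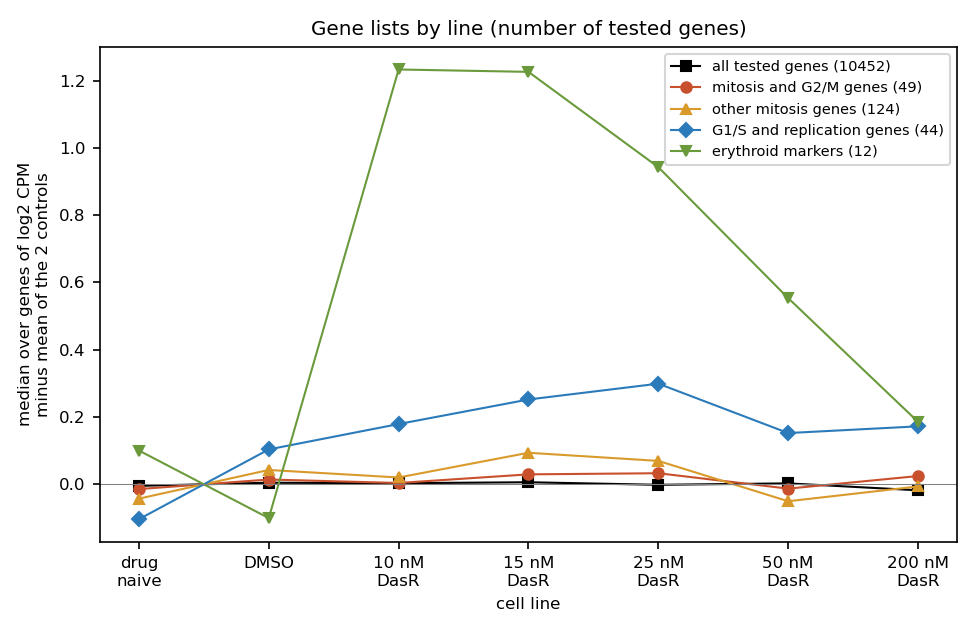
Median over the genes of a list of log2 CPM minus the mean of the 2 controls, for each of 7 lines, with the number of tested genes in the key. Mitosis and G2/M genes stay within 0.04 of 0, G1/S genes lie between 0.15 and 0.30 in the DasR lines, and erythroid markers reach 1.23 at 10 nM and 0.19 at 200 nM.

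Markers of cell type were counted in the same way. Of 12 erythroid markers, 10 rose in the early lines at 0.05 and 1 in the late lines, beside 22.6% and 16.2% of all tested genes, and 1 rose and 2 fell late against early, beside 6.60% and 6.10%. The 12 erythroid markers summed to 4067 and 3476 CPM in the controls, 10079, 11468 and 8613 in the early lines and 5934 and 4637 in the late lines, before TMM scaling. The most abundant was HBG2 except at 15 and 25 nM, where HBZ was highest. TFRC, the transferrin receptor, rose past 0.005 in the early lines by 1.13 ± 0.12 and in the late lines by 0.85 ± 0.13. EPOR, the erythropoietin receptor, and HBG1, a fetal globin whose reads may be shared with HBG2, rose in the early lines by 0.99 ± 0.15 and 1.24 ± 0.19. Of 6 megakaryocyte markers 2 were tested, and ITGA2B, the most abundant except at 10 nM, fell by 2.44 ± 0.37 in the early lines. The other, VWF, was at 0.666 and 0.291 CPM in the controls and between 3.88 and 37.0 CPM in the DasR lines, and rose at 0.05 by 5.08 ± 1.22 (early, FDR 0.0131) and 4.41 ± 1.25 (late, FDR 0.0319), values that depend on the few counts in the controls. Late against early, ITGA2B rose by 2.84 ± 0.37 (FDR 0.0167) and VWF was not called (FDR 0.630). Those 6 summed to between 12.7 CPM at 15 nM and 109 CPM at 200 nM, with PF4 and GP9 at 0 or 1 count in each line. Among lymphoid markers, CD3D, a chain of the T cell receptor complex, was at 16.3 and 8.15 CPM in the controls, 3.60, 2.73 and 8.47 in the early lines and 22.6 and 29.6 in the late lines, before TMM scaling. CD3D was highest in the late lines, while 1 early line lay between the controls. It rose late against early by 2.41 ± 0.50 (FDR 0.0270), and was at -1.35 ± 0.50 (early, FDR 0.0604) and 1.07 ± 0.54 (late, FDR 0.165) against the controls. The B cell marker MS4A1 and the fibroblast marker PDGFRA had no counts in 6 of the 7 lines, while COL1A1, another fibroblast marker, had 53 to 265 counts. The part of these shifts in the changes of the mitosis genes was not tested.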

How the data were processed

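RNA was measured in 7 K562 lines with 1 library each, made with a directional kit after depletion of ribosomal RNA. Alignment by the authors was to hg19, with STAR, and the submitters' processing notes name FastQC, featureCounts and edgeR. Their settings, strand included, are not given in the sources used here. The deposited counts are whole reads per gene without normalization, and the deposited gene lengths of the authors served for RPKM. The 2 other deposited tables hold the authors' own fold changes, p-values and FDR values, of which only gene symbols and the gene lengths were read. No per-sample column was left unused. UBE2C was matched through RefSeq.

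The 10452 genes that reached 10 CPM in 2 or more libraries were fitted with edgeR 4.0.16 (TMM, glmQLFit, glmQLFTest) in R 4.3.3 over all 7 libraries, with control, early and late groups, and p-values were adjusted by Benjamini-Hochberg over all tested genes. A second fit had DasR and control groups. The common dispersion was 0.0260. Log2 CPM used a prior count of 2. Libraries of a group differed beyond counting noise (chi-square per degree of freedom 21.1 to 70.1). At 3 counts, the floor was 0.108 to 0.150 CPM, for counting error only.

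The fits were tested on simulated data. Alternatives were DESeq2 1.42.0, limma 3.58.1 (voom), other scalings and filters, the groups compared alone, and each library left out.

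The members and lists were chosen with earlier results of these data known. Levels in every line were given for members past 0.005, for the 3 largest and 3 smallest fold changes of each comparison, for those called late against early, and for 14 genes fixed by role, 24 in all. The levels of BIRC5 and MKI67, the fold changes of the other members called at 0.05, and STAG1, ANAPC4, ANAPC11, VWF, CD3D and BTG2 were added after their values were seen. Positions came from GENCODE on GRCh37, the build of hg19, and promoters from RefSeq on GRCh38.p14. Exon overlaps were read from the same annotation, and how the counting treated reads in them is not given in the sources used here.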

Additional observations from a re-analysis of the deposited data

Results flagged for a closer look

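CCNB1 at 200 nM, with a log2 CPM of 7.60, lay apart from the other 4 DasR lines, with a gap to its neighbor of 0.779 of the whole range, over the limit of 0.71 for 5 values. Chance gives about 1 such gap in 20 groups, and 33 genes were looked at.

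The late and early lines differed in NUSAP1 (-0.48), KIF23 (-0.53) and TPX2 (-0.32), on the log2 scale, in edgeR's test of late against early lines. These 3 genes are described above with the lines on which the calls rested.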

How the results depend on the processing

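At an FDR of 0.005 the number of members called was 2 in the early and 2 in the late comparison, 0 late against early and 2 in DasR against control. DESeq2 called 15, 9, 3 and 9 in these, and an FDR of 0.05 gave 17, 15, 3 and 12. Of all genes, edgeR called 18.0%, 7.98%, 0% and 8.08%, DESeq2 34.0%, 24.0%, 10.9% and 25.4%, and the limit of 0.05 gave 46.5%, 33.9%, 12.7% and 32.4%. Without a filter on low counts the early comparison called 4 (12.1% of all genes) and DasR against control 1 (3.29%). With a filter at 1 CPM the late comparison called 1 (5.55% of all genes), and with only the groups compared in the fit it called 1 (2.46%). Leaving out each line in turn gave 0 to 4 (early), 0 to 2 (late) and 0 to 2 (DasR against control), and 0 each time for late against early, with 1.99% to 19.8%, 0.316% to 5.70%, 0.268% to 13.2% and 0% to 1.89% of all genes. At 0.05, leaving out each line gave 6 to 19 in the early comparison, 4 to 14 in the late one and 0 to 7 late against early, with 26.7% to 49.3%, 15.0% to 32.1% and 0% to 19.4% of all genes. With only the groups compared these were 7 (late, 24.3% of all genes) and 0 (late against early, 6.71%), and DESeq2 called 10 late against early (21.0%). These repeats at 0.05 were chosen after seeing the data. Where a group was left with 1 line, that line was assumed to vary like the others.

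The median fold change of members in the late lines was 0.0405 with a filter at 1 CPM and 0.0559 without a filter, and late against early it was -0.0330 and -0.0234. Leaving out each line, the median ran from 0.0164 to 0.0558 (early), from -0.0277 to 0.0403 (late) and from -0.0896 to -0.0422 (late against early). No scaling moved the median of all genes by 0.1.

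For 33 members, 1123 single-gene values were recomputed, those of 9 members chosen after seeing the data. At 0.05, 119 of 553 repeats of a called value lost the call, 16 of 570 repeats of an uncalled value passed, and 21 values, all uncalled, changed sign. At 0.005, 33 repeats lost the call, all in TOP2A and AURKB, and 36 passed. Leaving out each line, the early log2 fold change ran from -0.00254 to 0.107 for PLK1, -0.0243 to 0.0600 for AURKA, -0.0229 to 0.0492 for TPX2, -0.106 to 0.131 for BUB1, -0.109 to 0.0417 for MAD2L1, -0.0467 to 0.0686 for NDC80 and -0.158 to 0.0276 for KIF4A. In the late lines it ran from -0.0483 to 0.133 for WEE1, -0.0395 to 0.273 for PLK1, -0.213 to 0.124 for CENPA and -0.0664 to 0.117 for KIF20A. CENPA was also at 0.00128 with a filter at 1 CPM and at 0.0166 without a filter. The cause was not tested.

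No paired analysis was possible because the labels give no replicate numbers and each line has 1 library. Depth was not far apart between libraries, and no line was sequenced again, so that the spread within a line is unknown.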
